A study of Homo sapiens with 9 samples.

Results

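The genes described here are 10 members of the prostaglandin pathway, PLA2G4A, PTGS1, PTGS2, PTGES, PTGES2, PTGES3, HPGD, SLCO2A1, PTGER2 and PTGER4, among the 31033 gene names on the arrays. Members were found by the gene name that the scanner files give each probe, which yielded 17 of 50238 probes. RNA came from DLD1 cells, an established human colorectal cancer line, and each of 9 cultures was hybridized to a single-color Agilent array. Of the 9 cultures, 3 were untreated controls, 3 received siRNA to Lamin A/C (Lamin A/C Kd, where Kd denotes knockdown) and 3 siRNA to Lamin B2 (Lamin B2 Kd). Both knockdowns used 100 nM siRNA for 48 h with a lipid transfection reagent, whereas the controls received neither siRNA nor reagent, so effects of transfection and of the lamin cannot be told apart against the controls. All cultures were of the same line, and the study's methods describe the 3 cultures of a group as independent biological replicates.

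Prostaglandins are lipid mediators made from arachidonic acid. Cytosolic phospholipase A2 (PLA2G4A) releases arachidonic acid from membranes, and the cyclooxygenases PTGS1 and PTGS2 convert it to prostaglandin H2. PTGS1 is regarded as the constitutive enzyme, and PTGS2 (COX-2) as the form induced by growth factors, cytokines and stress and often raised in colorectal tumors. The synthases PTGES, PTGES2 and PTGES3 make prostaglandin E2, which acts through receptors that include PTGER2 (EP2) and PTGER4 (EP4). The transporter SLCO2A1 carries prostaglandins into the cell and the dehydrogenase HPGD inactivates them, and loss of HPGD is a known feature of colorectal cancer.

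Signals are given as processed intensity, or as log2 of the intensity minus the median of the array, where 0 is the median spot. A spot is called well above background by the scanner software, and between 65.6 and 74.1% of spots on an array were. The siRNA targets checked the labels: LMNA was at 7.04 and 7.19% of control in Lamin A/C Kd by its 2 probes, and LMNB2 at 20.0% of control in Lamin B2 Kd. All 8 colon epithelial markers were well above background on all 9 arrays. Of 10 stromal and immune markers, 4 (CD3E, CD68, PECAM1 and VWF) were, while COL1A1, COL1A2, COL3A1, PTPRC and LYZ were so on at most 2 arrays. PDGFRB was so on 7 arrays. Lamin B2 Kd replicate 3 stood apart technically. It was on a slide of its own and its processed signals lacked the multiplicative correction of spatial trends that the other 8 arrays, on a single slide with all 3 groups, had received. Its dimmest probe well above background was at 11.2, compared with 16.1 to 18.2 on the others. Leaving it out is the same as staying within the slide of 8 arrays, and values without it are given where that matters.

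The probe behind the PTGS2 values can be placed by a PCR assay of the study. The last 21 of its 60 bases are identical to the start of a 22-base forward primer that the study used for PTGS2. They are shown here because the probe and that assay share this stretch. The study also lists another PTGS2 primer pair, from a set designed on sequence that the array does not represent.

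PTGS2 probe 1, bases 40 to 60: ctatgtgctagcccacaaaga

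For PTGES3, a pair of probes overlapped by 36 bases and differed at 2 of them, which are in capitals below.

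PTGES3 probe 2: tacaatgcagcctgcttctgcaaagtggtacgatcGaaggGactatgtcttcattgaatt
PTGES3 probe 4: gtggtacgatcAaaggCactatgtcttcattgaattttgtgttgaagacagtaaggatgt

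Counted from the first base of probe 2, the differences were G36A and G41C. A copy of the gene with nearly the same sequence could therefore contribute to either probe, and PTGES3 values are uncertain to that extent.

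Upstream sequences are given for PTGS2, PTGS1 and PTGER2, whose signals differed between groups below. They are the 250 bases before the RefSeq start on GRCh38.p14, and RefSeq promoters were found for 9 of the 10 members (all but SLCO2A1). Capitals mark matches on either strand to the TATA box (TATAAA), the core of a cAMP response element (CGTCA), the E-box (CANNTG), an Sp1-type box (GGGCGG), the AP-1 site (TGANTCA), a C/EBP site (TTNNGNAA) or the NF-kB consensus. In PTGS2 the CGTCA and CANNTG matches overlap by 2 bases.

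PTGS2, chr1:186680424-186680673, minus strand: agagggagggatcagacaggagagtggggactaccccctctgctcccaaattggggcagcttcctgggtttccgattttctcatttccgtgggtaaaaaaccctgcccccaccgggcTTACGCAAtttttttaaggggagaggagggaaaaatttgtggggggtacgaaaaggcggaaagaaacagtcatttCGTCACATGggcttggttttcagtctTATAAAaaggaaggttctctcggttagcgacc
PTGS1, chr9:122370283-122370532, plus strand: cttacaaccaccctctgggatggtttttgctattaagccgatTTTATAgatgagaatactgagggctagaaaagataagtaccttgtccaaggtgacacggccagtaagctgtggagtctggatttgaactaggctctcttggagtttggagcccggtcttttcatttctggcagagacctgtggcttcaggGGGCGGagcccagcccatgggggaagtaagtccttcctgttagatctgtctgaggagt
PTGER2, chr14:52314062-52314311, plus strand: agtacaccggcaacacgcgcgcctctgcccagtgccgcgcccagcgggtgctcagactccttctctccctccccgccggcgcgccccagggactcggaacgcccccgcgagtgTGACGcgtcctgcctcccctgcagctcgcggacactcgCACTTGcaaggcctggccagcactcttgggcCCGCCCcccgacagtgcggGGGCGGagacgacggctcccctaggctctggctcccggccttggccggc

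The PTGS2 window held TATAAA starting 32 bases before the start, where a TATA box usually lies, CGTCA at 58, CANNTG at 55 and TTNNGNAA at 133 bases. In PTGS1 the match to TATAAA lay 208 bases away and a GGGCGG match 58 bases away. PTGER2 held CGTCA at 137 bases, CANNTG at 99 and 2 GGGCGG matches, the nearer at 49. Among 35116 promoter windows of this length, 10.7% held TATAAA, 21.2% CGTCA, 61.8% CANNTG, 42.6% GGGCGG and 33.2% TTNNGNAA. The other motifs, held by 6.57% (TGANTCA) and 5.21% (NF-kB), had no match in these 3 windows. Only full matches were counted, so a site that departs from a motif by a single base is not marked. The NF-kB consensus searched was GGGRNWYYCC, where R is A or G, W is A or T, Y is C or T and N is any base. The stretch gggactaccc in the PTGS2 window departs from it by a single base and is therefore not marked. GC content was 50.4% for PTGS2, 49.6% for PTGS1 and 74.0% for PTGER2, against a median of 58.0%. These matches describe the letters only.

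Of the 17 probes, 12 were well above background on all 9 arrays, 4 on some arrays and 1 on none, and 8 members had a probe well above background throughout. Each comparison tested the same 14 probes, at least 1 for every member, because a probe entered if every array of at least 1 group compared had it well above background. In Lamin A/C Kd, 1 of 10 members (PTGS2, higher) had a fitted difference past 2-fold with an unadjusted p under 0.05, against 2.94% of 21868 genes tested. With an adjusted p under 0.05 at any fold, PTGS2 (higher) and PTGER2 (lower) were called, against 11.1% of all genes. In Lamin B2 Kd, PTGS2 (higher) and PTGS1 (lower) were called by both rules, against 2.72% and 5.39% of 22123 genes. Between the knockdowns, PTGS1 (higher in Lamin A/C Kd) was called at 2-fold, against 5.27% of 21852 genes, and PTGS1 and PTGER2 (lower in Lamin A/C Kd) by adjusted p, against 18.7%. With a 1.5-fold threshold and an unadjusted p under 0.05, 2 members were called in Lamin A/C Kd, against 12.1% of all genes, and 4 with Lamin B2 siRNA, against 11.5%. Between the knockdowns it called 2, against 17.8%. PTGS2 is counted in each control comparison although no control array detected it, so its call rests on a fold against undetected signals and on a probe that passed detection only where it was high. Nothing is read from these counts about the members. Where all arrays of a group are said below to lie above or below those of another, the share of all probes that did so was not counted. Such a separation is given as a description and is not read as a result about the members. By the brightest probe of each member, the median log2 difference was -0.05 in Lamin A/C Kd, beside -0.04 over all genes tested, and -0.15 with Lamin B2 siRNA, beside -0.14. By that probe 4 members were higher and 6 lower in each knockdown. The scale itself moved these medians: over all probes tested in Lamin B2 Kd the median was -0.14 with the 50th percentile shift used here and 0.06 with a 75th percentile shift. The differences below do not take this offset off, so small falls in that group have to be read beside it.

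PTGS2 was not detected in control cells and was detected in both knockdowns. Its brighter probe read 8.15, 15.3 and 8.60 in the 3 controls, none of them well above background. The Lamin A/C Kd arrays read 32.1, 32.2 and 24.2, and the Lamin B2 Kd arrays 38.0, 34.6 and 35.7, all well above background. The groups did not overlap, control replicate 2 was the highest control, and every knockdown array was higher than every control. Because the controls lay under the dimmest signal well above background on their arrays, they were set to that signal. By the group means PTGS2 was then at least 1.94-fold higher after Lamin A/C siRNA and at least 2.15-fold higher after Lamin B2 siRNA. These limits leave out the spread of the arrays. That signal is also not a strict detection limit: SLCO2A1 was undetected at 11.7 on Lamin B2 Kd replicate 3, where the dimmest detected signal was 11.2. The fit, which takes the undetected control signals at their values, is given as a description. Its log2 difference was 1.69 ± 0.27 (SE, n = 3 per group) in Lamin A/C Kd, with an adjusted p of 0.00796 by limma. In Lamin B2 Kd it was 1.84 ± 0.27 (SE, n = 3 per group), with an adjusted p of 0.0137 by limma. The array measures a whole culture, so a rise in every cell and a rise in a fraction of the cells cannot be told apart.

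The PTGS2 signals remained dim even in the knockdowns, at 24.2 to 38.0 against array medians of 63.0 to 82.6. Normexp background correction, which adds an offset of 50, reduced the log2 differences to 0.46 and 0.49 and ended the 2-fold call, although the direction held. The probe entered the test only through the knockdown arrays and so had to differ, which leaves its p-values without weight as support, and a test restricted to probes detected on all 9 arrays leaves it out. The second PTGS2 probe was not well above background on any array. It read 4.54, 4.19 and 6.46 in controls, 7.61, 5.202 and 15.1 in Lamin A/C Kd and 4.41, 4.15 and 3.45 in Lamin B2 Kd. It therefore gave no measured level, and on the log2 scale its Lamin B2 Kd and control signals overlapped. Between the knockdowns PTGS2 differed by -0.15 (Lamin A/C Kd minus Lamin B2 Kd), with a 95% interval of -0.77 to 0.47 and an adjusted p of 0.748 by limma, so a difference within that interval was not detectable.

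PTGS1, the constitutive cyclooxygenase, was lower in Lamin B2 Kd, opposite to PTGS2. Its brighter probe read 111, 83.2 and 151 in controls, 65.75, 80.0 and 68.7 in Lamin A/C Kd, and 28.8, 48.4 and 38.3 in Lamin B2 Kd. All these signals were well above background, and the 3 Lamin B2 Kd arrays were the lowest of the 9. PTGS1 in Lamin B2 Kd was 34.3% of control, a log2 difference of -1.54 ± 0.24 (SE, n = 3 per group) with an adjusted p of 0.0148 by limma. Normexp reduced that difference to -0.83 and ended its 2-fold call. In Lamin A/C Kd it was 72.0% of control, a log2 difference of -0.47 ± 0.24 (SE) that did not pass, with an adjusted p of 0.264 by limma, and that fell to -0.23 without control replicate 3. The knockdowns differed directly by 1.07 ± 0.24 (SE) on the log2 scale, higher in Lamin A/C Kd, with an adjusted p of 0.0164 by limma. That 2-fold call sat at its threshold, and several alternatives ended it. The difference was 0.95 without Lamin A/C Kd replicate 2, 0.97 without Lamin B2 Kd replicate 1, 0.95 with a 75th percentile shift and 0.51 after normexp. A second PTGS1 probe was well above background only on control replicate 3, where it read 27.3, and was not tested. Its other signals were 12.2 and 13.6 in controls, 7.18 to 10.2 in Lamin A/C Kd and 3.45 to 13.97 in Lamin B2 Kd.

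**Figure D1:**
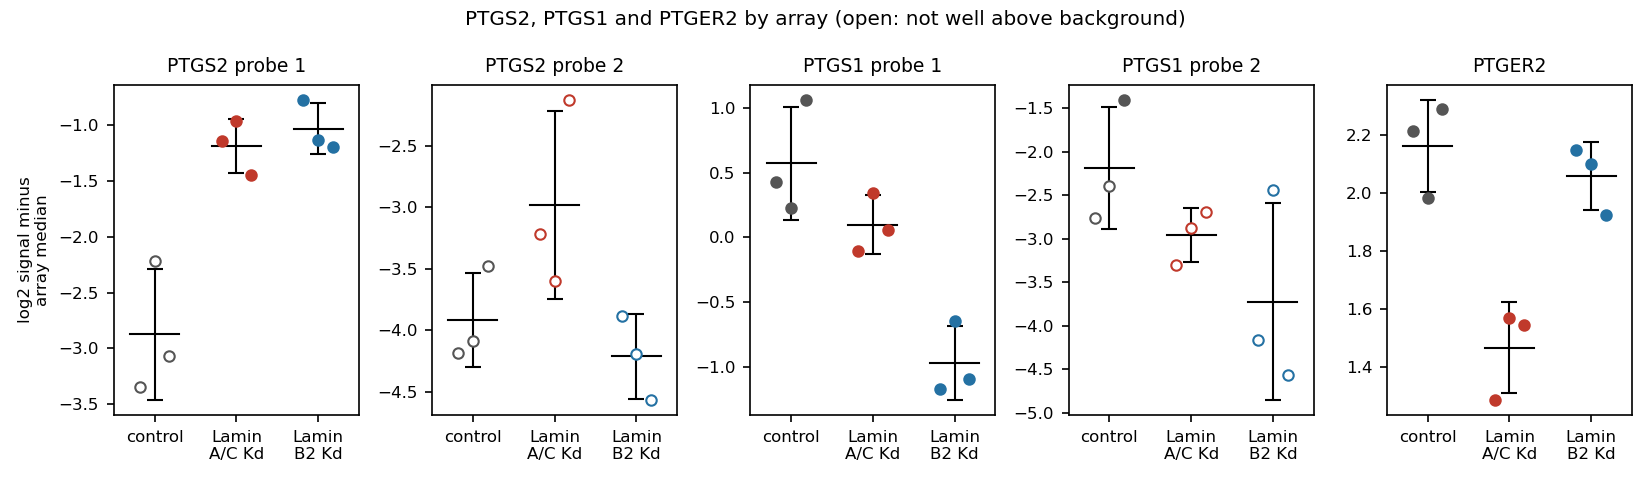
Log2 signal minus the array median (vertical axis) of both PTGS2 probes, both PTGS1 probes and PTGER2 in the 3 groups; points are arrays, filled where well above background, and lines are means ± SD (n = 3). PTGS2 probe 1 is open in all 3 controls and filled in all 6 knockdown arrays, PTGS1 probe 1 is lowest in Lamin B2 Kd, and PTGER2 is lowest in Lamin A/C Kd. Each panel has its own scale.

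At the step before the cyclooxygenases, PLA2G4A showed no change that passed the test. Its probe read 59.3, 57.7 and 50.1 in controls, 62.9, 53.1 and 54.1 in Lamin A/C Kd, and 51.5, 61.1 and 34.1 in Lamin B2 Kd. The low value was that of replicate 3, the array on its own slide. After the shift to the array median, the 3 Lamin A/C Kd arrays lay just above the 3 controls. The log2 difference was 0.20 (95% interval -0.33 to 0.72, adjusted p of 0.685 by limma) for Lamin A/C and -0.20 (-0.73 to 0.33, adjusted p of 0.596) for Lamin B2, which became 0.11 when Lamin B2 Kd replicate 3 was left out.

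Among the prostaglandin E synthases, PTGES, the inducible microsomal enzyme that often accompanies PTGS2, had a higher mean in both knockdowns without passing the adjusted test. It read 62.5, 58.3 and 50.1 in controls, 63.4, 80.2 and 79.6 in Lamin A/C Kd and 56.2, 63.4 and 78.6 in Lamin B2 Kd. After the shift to the array median, every knockdown array lay above every control. The log2 difference in Lamin A/C Kd was 0.56 ± 0.15 (SE, n = 3 per group), with an adjusted p of 0.0542 by limma. After Lamin B2 siRNA it was 0.23 ± 0.15 (SE), with an adjusted p of 0.372 by limma.

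PTGES2, a membrane-associated synthase, did not pass the adjusted test in either knockdown. Intensities were 1204, 911 and 1081 in controls, 751, 931 and 742 in Lamin A/C Kd and 645, 947 and 524 in Lamin B2 Kd. The log2 differences were -0.22 ± 0.24 (SE, adjusted p of 0.642 by limma) and -0.61 ± 0.24 (SE, adjusted p of 0.169 by limma), and the second had an unadjusted p of 0.03 and no overlap of groups. Lamin B2 Kd replicate 3 was the lowest of the 9 arrays, and without it the second value was -0.34.

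PTGES3, the cytosolic synthase, which is also the HSP90 co-chaperone p23, was measured by 4 bright probes. The brightest probe read 76850, 68770 and 74950 in controls, 58990, 56440 and 63430 in Lamin A/C Kd and 55400, 52980 and 47800 in Lamin B2 Kd. Relative to the array median its log2 difference was -0.13 ± 0.15 (SE, adjusted p of 0.681 by limma) in Lamin A/C Kd and -0.48 ± 0.15 (SE, adjusted p of 0.107 by limma) in Lamin B2 Kd. The 4 probes had differences of -0.13 to -0.44 in Lamin A/C Kd and -0.42 to -0.68 in Lamin B2 Kd. On that scale every Lamin B2 Kd array was below every control by each of the 4 probes, while the median over all probes tested was also lower there, at -0.14. The share of all probes that separated in this way was not counted. The probes read the same RNA on the same arrays, so they are not separate support. Lamin B2 Kd replicate 3 was the lowest of the 9 arrays on that scale by every probe. Without it the brightest probe was at -0.34 in Lamin B2 Kd. Over the alternative ways of processing, with arrays left out among them, that probe lay between -0.61 and -0.28 there. None of the values passed the adjusted test, where the smallest adjusted p was 0.0923 by limma for probe 2 in Lamin B2 Kd. The overlapping probes 2 and 4, whose sequences are given above, differed from control by -0.68 and -0.53 (log2) in Lamin B2 Kd.

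HPGD, which inactivates prostaglandin E2, gave different values by its 2 probes. Probe 1 read 660, 272 and 743 in controls, 519, 457 and 530 in Lamin A/C Kd and 593, 602 and 448 in Lamin B2 Kd. Control replicate 2 was far below the other controls, and all 6 knockdown arrays lay within the range of the controls. The log2 differences were 0.15 ± 0.33 and 0.11 ± 0.33 (SE), and they turned to -0.27 and -0.30 without control replicate 2. Probe 2 read 91.65, 72.9 and 102 in controls, 57.3, 47.3 and 68.6 in Lamin A/C Kd and 47.8, 78.9 and 75.7 in Lamin B2 Kd. Its log2 differences were -0.45 ± 0.19 (SE, adjusted p of 0.182 by limma) and -0.39 ± 0.19 (SE, adjusted p of 0.242 by limma). No HPGD probe passed the test, and the direction of a change in HPGD was not settled.

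SLCO2A1, the prostaglandin transporter, was near the detection limit. It read 28.6, 28.3 and 25.0 in controls, 27.8, 23.9 and 18.1 in Lamin A/C Kd and 24.8, 28.6 and 11.7 in Lamin B2 Kd, where the last was not well above background. Its log2 differences were -0.07 ± 0.34 (SE, adjusted p of 0.936 by limma) and -0.40 ± 0.35 (SE, adjusted p of 0.473 by limma). The second value rested on Lamin B2 Kd replicate 3 and was 0.06 without it.

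The receptors differed from each other. PTGER2, which couples to cAMP, was lower in Lamin A/C Kd and not called in Lamin B2 Kd. It read 383, 281 and 353 in controls, 173, 187 and 192.5 in Lamin A/C Kd and 288, 325 and 311 in Lamin B2 Kd. All 3 Lamin A/C Kd arrays lay below the other 6. PTGER2 in Lamin A/C Kd was 61.7% of control, a log2 difference of -0.70 ± 0.14 (SE, n = 3 per group) with an adjusted p of 0.0153 by limma, which is short of 2-fold. Over the alternative ways of processing, the difference was between -0.79 and -0.60. After Lamin B2 siRNA it was -0.10 (95% interval -0.41 to 0.20, adjusted p of 0.639 by limma), a value that turned to 0.09 with the 75th percentile shift and 0.05 with quantile normalization. The knockdowns differed directly by -0.59 ± 0.14 (SE, Lamin A/C Kd minus Lamin B2 Kd), with an adjusted p of 0.0188 by limma.

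PTGER4, also coupled to cAMP, was not called in any comparison. The brighter of its 2 probes read 163.5, 133 and 151 in controls, 141, 104 and 148 in Lamin A/C Kd and 159.5, 147 and 166 in Lamin B2 Kd. The log2 difference was -0.03 (95% interval -0.36 to 0.31) in Lamin A/C Kd and 0.10 (-0.23 to 0.44) for Lamin B2, so a 2-fold change lay outside both intervals. The second probe was well above background only on Lamin B2 Kd replicate 2, where it read 19.9, and lay between 8.19 and 17.9 on the other arrays.

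Between the knockdowns, the 8 members other than PTGS1 and PTGER2 were not called. Their log2 differences by the brightest probe (Lamin A/C Kd minus Lamin B2 Kd) ran from -0.15 for PTGS2 to 0.40 for PLA2G4A. The median of the 10 members was 0.33, beside 0.05 over all genes, with 7 members higher in Lamin A/C Kd and 3 lower. PTGES (0.33), PTGES2 (0.38), PTGES3 (0.35) and SLCO2A1 (0.33) lay near that median, and all but PTGES have their lowest Lamin B2 Kd signal on replicate 3. Without that array PLA2G4A was at 0.0866, PTGES2 at 0.12 and PTGES3 at 0.21, and SLCO2A1 turned to -0.14.

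**Figure D2:**
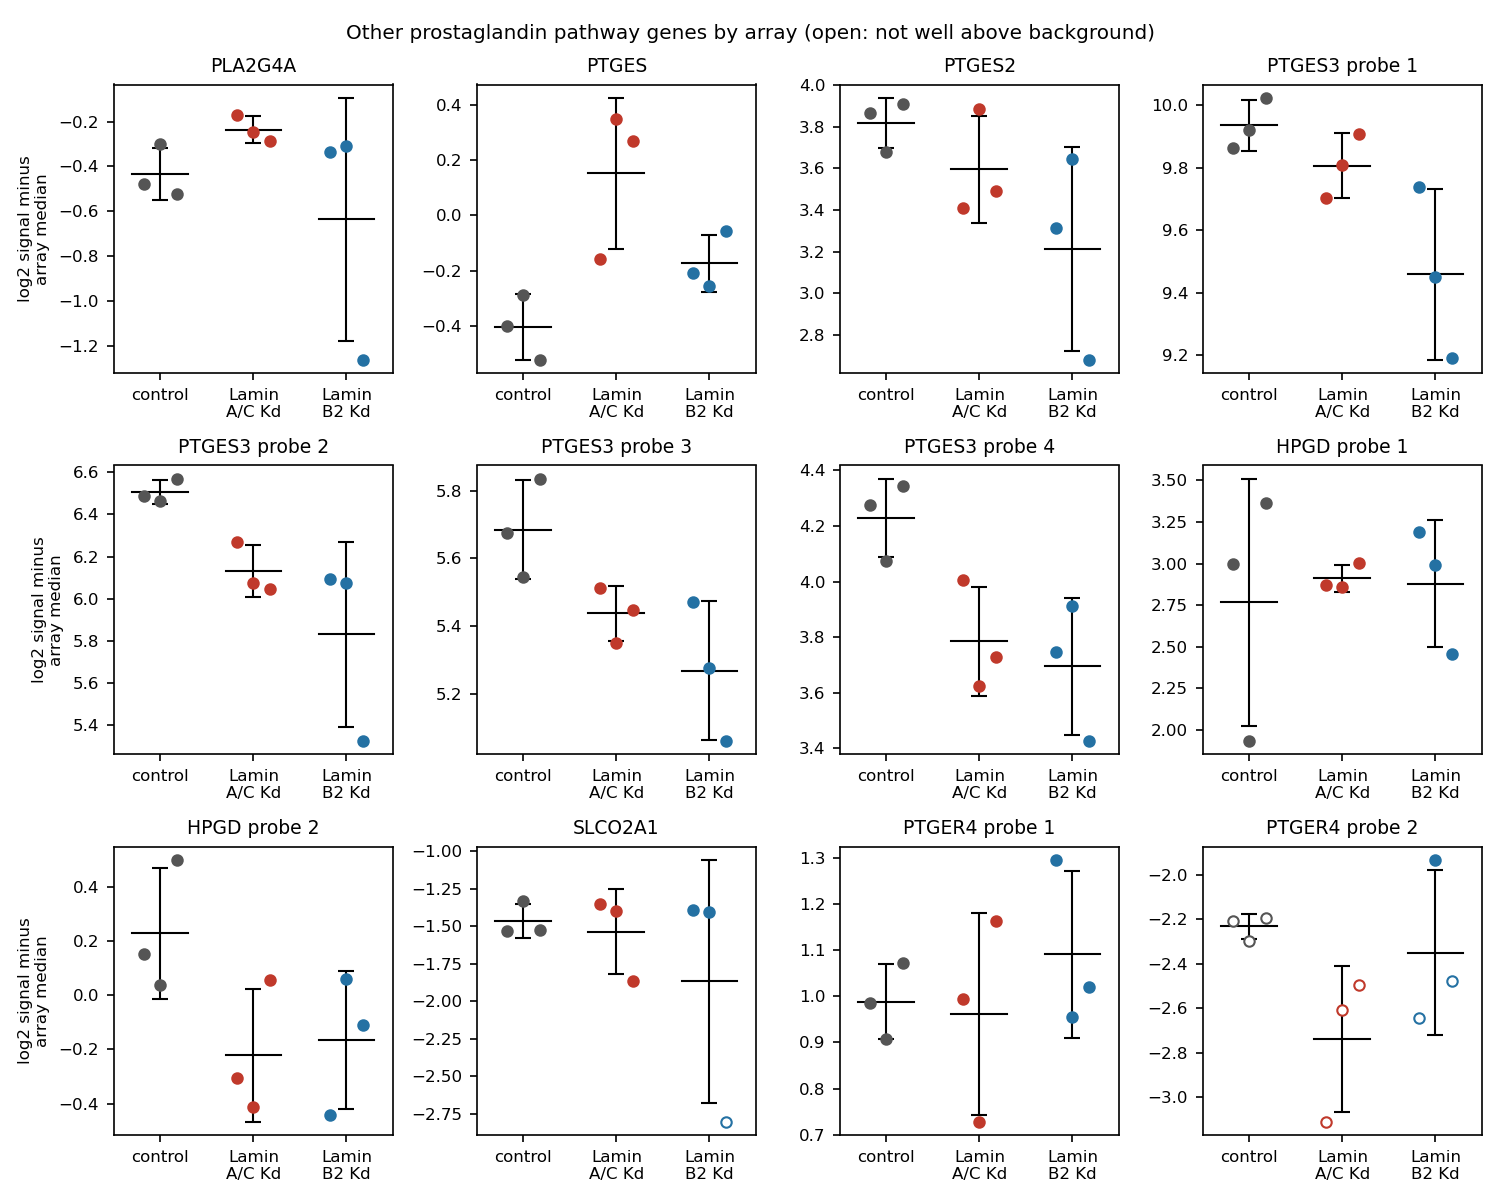
Log2 signal minus the array median (vertical axis) of the other 7 members, every probe, in the 3 groups; points are arrays, filled where well above background, and lines are means ± SD (n = 3), with a separate scale in each panel. Lamin B2 Kd replicate 3, the rightmost blue point, is the lowest array for PLA2G4A, PTGES2, all 4 PTGES3 probes and SLCO2A1, and control replicate 2 is the lowest for HPGD probe 1.

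**Figure D3:**
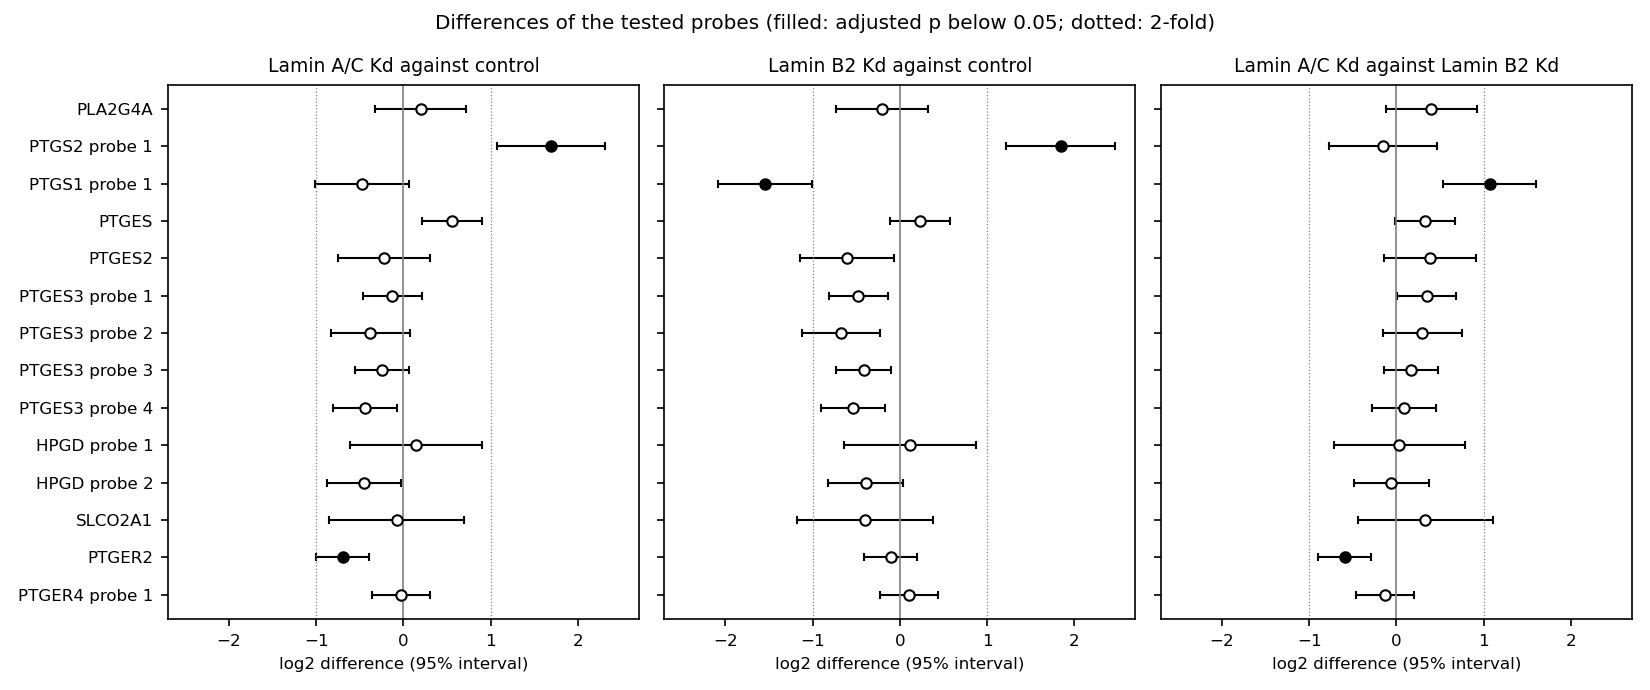
Log2 differences (horizontal axis) of the 14 tested probes in the 3 comparisons, with 95% intervals from the limma fit; filled points have an adjusted p under 0.05 and dotted lines mark 2-fold. PTGS2 lies to the right in both knockdowns and near 0 between them, PTGS1 is filled in Lamin B2 Kd and between the knockdowns, and PTGER2 in Lamin A/C Kd and between the knockdowns.

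The rest of the eicosanoid pathway was read from a list of 39 further enzymes, receptors and transporters, of which 38 were on the array. In Lamin A/C Kd, 32 were tested and 2 were called, both higher, against 2.94% of all genes. AKR1C3, a reductase that makes prostaglandin F2 and related products, rose by 2.18 ± 0.19 (SE, log2; adjusted p of 0.000589 by limma). PLA2G2A, a secreted phospholipase A2, rose by 1.15 ± 0.17 (SE, log2; adjusted p of 0.00573 by limma), and by 0.56 after normexp, short of 2-fold. With an adjusted p at any fold, 5 genes were higher and 1 lower, against 11.1% of all genes, and the lower was MGLL, which releases arachidonic acid from the endocannabinoid 2-arachidonoylglycerol, at -0.99 (adjusted p of 0.00581 by limma). The list's median log2 difference was 0.06, beside -0.04 over all genes.

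In Lamin B2 Kd, 33 genes of that list were tested and 0 were called by limma, against 2.72% of all genes, while 1 was higher and 4 were lower at an unadjusted p under 0.05. By adjusted p only TBXAS1, the thromboxane synthase, passed, at -0.73 ± 0.16 (SE, log2; adjusted p of 0.0414 by limma) by 1 of its 2 probes, the other being at 0.32. Leaving out Lamin B2 Kd replicate 1 or replicate 2 raised the count of calls to 2. The list's median was 0.01, beside -0.14 over all genes.

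Between the knockdowns 5 of 33 genes of the list were called, against 5.27% of all genes. AKR1C3 differed by 2.01 and PLA2G2A by 1.06, both higher in Lamin A/C Kd. LTB4DH (PTGR1), which acts on 15-keto prostaglandins and leukotriene B4, was higher there by 1.16 ± 0.13 (SE, adjusted p of 0.00082 by limma). MGLL was lower in Lamin A/C Kd by a log2 difference of -1.05 (adjusted p of 0.00224 by limma). PTGDS, a prostaglandin D2 synthase, was called by only the third of its 3 probes, at -1.20, whereas the others were at -0.15 and 0.38, and on Lamin A/C Kd arrays that probe was well above background on 1 of 3. The list's median between the knockdowns was -0.08, beside 0.05 over all genes. AKR1C3 and LTB4DH kept their calls under all 21 alternatives. PLA2G2A lost its call between the knockdowns under 3, among them leaving out Lamin B2 Kd replicate 2 (0.89), and MGLL lost it under 3, each leaving out 1 array (-0.99 to -0.98). PTGDS lost it with normexp (-0.40) and in the authors' table (-0.16).

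The other list held 34 known regulators of PTGS2 and NF-kB or cytokine genes, and 32 were tested in each comparison. In Lamin A/C Kd, 1 was called higher and 1 lower, against 2.94% of all genes, and its median of -0.10 lay beside -0.04 over all genes. ICAM1, an adhesion molecule and NF-kB target, was called by 1 of 3 probes at 1.10 ± 0.24 (SE, log2; adjusted p of 0.0218 by limma). Its other probes were at 0.997 and 0.01, and the call was lost without control replicate 2 (0.97) or control replicate 3 (0.99). It was also lost with normexp (0.55) and in the authors' table (0.09). CREB1, a cAMP-responsive transcription factor, was called lower by 1 of 3 probes at -1.57, with an adjusted p of 0.203 by limma. That probe was not well above background on any Lamin A/C Kd array. With those arrays at their dimmest detected signal, or at their own where higher, the group means lay 2.58-fold apart. This is not a minimum over the arrays, because the difference depended on control replicate 2. The other CREB1 probes were at -0.02 and -0.21, and without control replicate 2 the called probe was at -0.57. The CREB1 call was kept under 4 of 20 alternatives. By adjusted p, against 11.1% of all genes, 4 genes of the list were higher and 1, the early response gene EGR1 (-0.72, adjusted p of 0.00783 by limma), was lower.

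In Lamin B2 Kd, TNF and IL8, which encode inflammatory cytokines, were called higher and 0 genes lower by limma, against 2.72% of all genes. At an unadjusted p under 0.05 and any fold, 6 genes were higher and 6 lower. By adjusted p, against 5.39% of all genes, EGFR was higher, and CXCL1 and TIA1 were lower. EGFR passed by a single probe (0.89, adjusted p of 0.0423 by limma), with the others at 0.13 and 0.05. The passing probe was well above background on 3 Lamin B2 Kd arrays and 2 control arrays. It entered the test only through the group where it was high, so its p-value carries no weight as support. CXCL1 and the brightest TIA1 probe were each at -0.48 (adjusted p of 0.0471 and 0.0469 by limma). TNF was called by 1 of its 2 tested probes at 1.21 ± 0.40 (SE, log2; adjusted p of 0.123 by limma), while the other was at -0.33. The called TNF probe was also well above background on 3 Lamin B2 Kd arrays and only 2 control arrays, so the same limit holds for it. IL8 was at 1.01 ± 0.37 (SE, log2; adjusted p of 0.153 by limma). Its call was lost under 8 of 21 alternatives, among them leaving out Lamin B2 Kd replicate 3 (0.48), control replicate 2 (0.98) or control replicate 3 (0.9992). The TNF call was lost without control replicate 1 (1.004) or Lamin B2 Kd replicate 1 (0.89), and also with normexp (0.44) and in the authors' table (0.35). The list's median was -0.13, beside -0.14 over all genes. Between the knockdowns 2 genes were called, against 5.27% of all genes. CXCL2, a neutrophil chemokine, was called by both probes, at 1.36 and 1.02, higher in Lamin A/C Kd. TIA1, an RNA-binding protein that represses PTGS2 translation, was called by 1 of 3 probes at 1.40, with the others at 0.25 and 0.47. No gene of this list was called in both knockdowns, and ICAM1, CREB1, TNF and IL8 were not called between them (0.47, -0.49, -0.78 and -0.28 by the called probe).

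**Figure D4:**
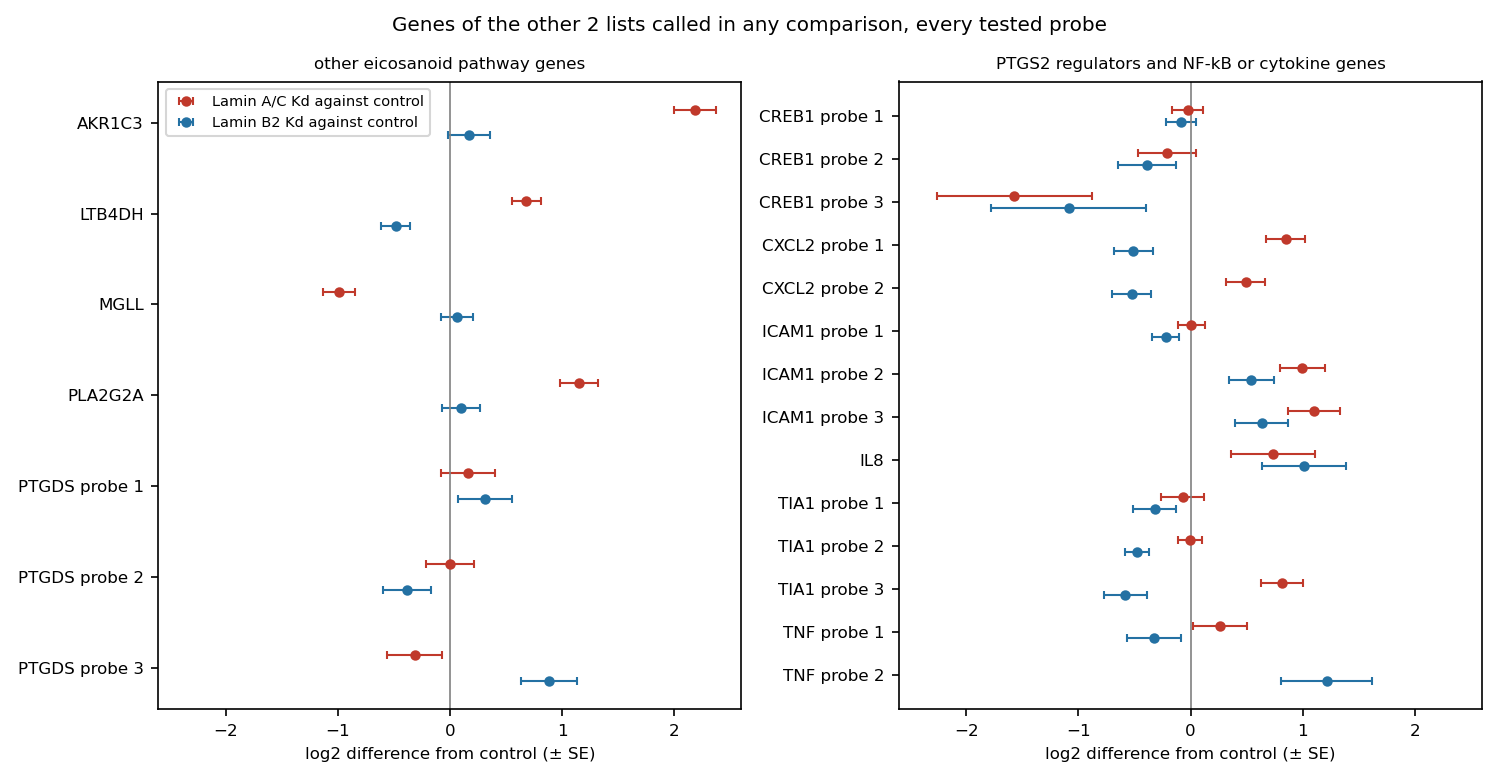
Log2 difference from control ± SE (horizontal axis) of the genes called in any comparison from the eicosanoid list (left) and the list of PTGS2 regulators and cytokine genes (right), every tested probe, with Lamin A/C Kd in red and Lamin B2 Kd in blue; TNF probe 2 was tested only with Lamin B2 Kd. AKR1C3 stands at 2.18 (red) and 0.17 (blue), and the probes of CREB1, ICAM1, PTGDS, TIA1 and TNF differ among themselves.

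Stromal and immune markers were read in the same arrays. Their summed signal, in multiples of the array median, was 5.58 to 8.08 in controls, 5.97 to 6.91 in Lamin A/C Kd and 4.83 to 7.39 in Lamin B2 Kd. The ranges of the 3 groups overlapped. Of these markers PDGFRB, a receptor of mesenchymal cells, was called higher in Lamin A/C Kd at 1.52 (adjusted p of 0.0109 by limma). Its only probe was well above background on 2 of the 3 controls, where it read at most 35. It entered that test only through the Lamin A/C Kd arrays, so its p-value carries no weight as support. Among the epithelial markers VIL1, an actin-binding protein of the brush border, was lower in Lamin B2 Kd at -1.06 (adjusted p of 0.034 by limma). The part of either in the prostaglandin genes was not tested.

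The 5 gene names whose pattern over the 9 arrays was most like that of PTGS2 probe 1 were taken from 33749 tested probes, by the root mean square distance of the log2 differences from each probe's own control mean. The nearest was LOC115110 (TNFRSF14-AS1 in RefSeq, an antisense RNA) at 0.36. Like PTGS2 it was not well above background in any control, but it was so only in Lamin B2 Kd. LOC57400 followed at 0.38, with log2 differences of 1.54 in Lamin A/C Kd and 1.32 with Lamin B2 siRNA, and was well above background on all 9 arrays. The other 3 are named on the array only by a sequence record and lay at 0.39 to 0.45.

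**Figure D5:**
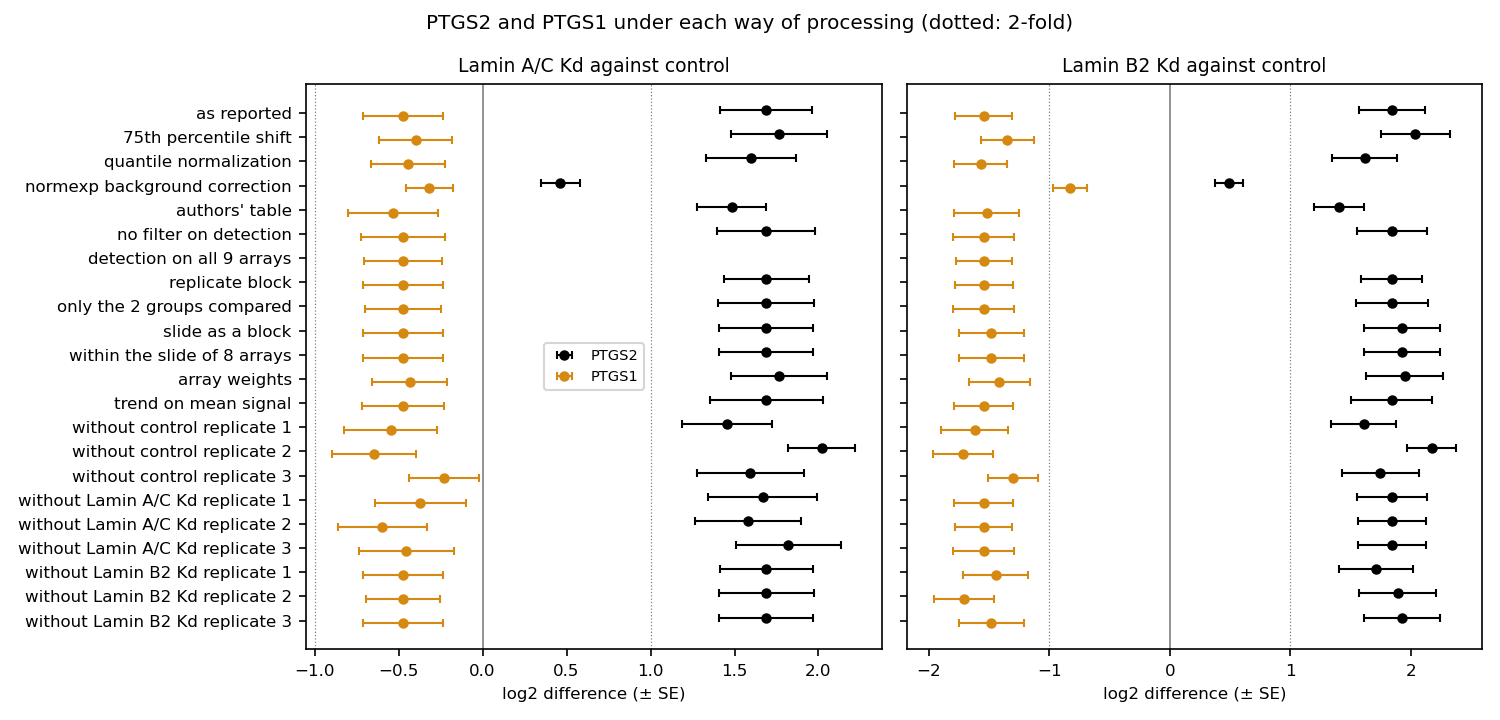
Log2 difference from control ± SE (horizontal axis) of PTGS2 probe 1 (black) and PTGS1 probe 1 (orange) under each way of processing and with each array left out (vertical axis), with dotted lines at 2-fold. PTGS2 lies between 1.40 and 2.17 in every setting shown except normexp, where it is 0.46 and 0.49, and it has no value with detection on all 9 arrays.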

How the data were processed

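The authors extracted RNA from 3 cultures per group, labeled it with Cy3 and hybridized it to Agilent arrays. They deposited the scanner output of each array (Agilent Feature Extraction, version 10.5 per the submitters' processing notes, a later one per the file headers), whose processed intensity is background-subtracted and corrected for spatial trends. A second deposited file gives log2 values after their 50th percentile shift, with each row's median subtracted, and some of its rows join several probes. Its scale and direction were checked against the scanner values. Its Lamin B2 Kd set numbers differ from the sample titles, so those columns were used by group only, as an alternative.

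Here the log2 intensity minus the array's 50th percentile was averaged over the non-outlier spots of a probe. A probe was well above background where at least 0.5 of its spots were so marked, and no spot was saturated. Comparisons used limma 3.58.1 (R 4.3.3, with the data.table package, version 1.17.8) over all 9 arrays, with Benjamini-Hochberg adjustment over all probes tested. The methods of the study do not name its test, and its thresholds (2-fold, p under 0.05) were used. A gene was called where any tested probe was. Probe 1 is the brightest of a gene over all arrays. For lower limits of a fold, undetected arrays were set to the dimmest signal well above background on that array, or to the probe's own signal where higher. Such a limit holds for the group means on this scale and leaves out the spread of the arrays. All members, the genes of the 2 other lists that were called in any comparison and 2 of the 5 array names most like PTGS2 are named. The other 3 are sequence records and are given by value only. Members and lists were chosen with earlier results of these data known, and PTGS2 was among those results, so its values are not independent support. Steps were tested on simulated data. Arrays give no counts, and their number, 3 per group, limits the precision.

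Samples with the same set number were checked for pairing. Their deviations from the group means correlated between -0.085 and 0.147 over probes detected on all arrays, and not every pair exceeded 0.1, so the numbers were not treated as pairs. Alternatives were a 75th percentile shift, quantile normalization, normexp (offset 50), the authors' table, other filters on detection, the replicate number or the slide as a block, only the 2 groups compared, array weights, a trend on mean signal and leaving out each array. Call rules and averaging of probes were also varied. The same alternatives were applied to the other 2 lists after the data were seen.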

Additional observations from a re-analysis of the deposited data

How the results depend on the processing

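Of 564 alternative values for the 27 log2 differences of members other than PTGS2, 525 kept direction and call, 7 lost a call (all of PTGS1) and 32 changed sign. Log2 differences from control are given unless said otherwise, and the cause of each change was not tested. Normexp ended the PTGS2 call with either siRNA (0.46 for Lamin A/C, 0.49 for Lamin B2) and left 0 members called in each comparison. With detection required on all 9 arrays, PTGS2 was not tested, leaving 0 calls for Lamin A/C and 1 for Lamin B2. A 1.5-fold threshold gave 2, 4 and 2 members for Lamin A/C, for Lamin B2 and between the knockdowns (12.1, 11.5 and 17.8% of all genes), and adjusted p at any fold gave 2 for Lamin A/C and 2 between knockdowns. Between the knockdowns, 0 members were called with the 75th percentile shift, the authors' table or array weights, 2 without a detection filter, and 0 to 1 with an array left out. There PTGS2 turned to 0.08 in the authors' table. All other reversals were of values not called in either setting. Except for the 1.5-fold and adjusted p rules, the share of all genes called under an alternative is not given. Counts under those alternatives are therefore not read as results about the members or the lists.

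In Lamin A/C Kd, PTGER4 turned to 0.0476 with the 75th percentile shift and SLCO2A1 to 0.0067 with normexp. With an array left out, HPGD lay between -0.27 and 0.45, PTGER4 between -0.13 and 0.09 and SLCO2A1 between -0.17 and 0.0881. In Lamin B2 Kd, PTGER2 turned to 0.0913 (75th percentile) and 0.0511 (quantile). PLA2G4A turned to 0.11 and SLCO2A1 to 0.0644 with the slide as a block or within it, and to 0.0702 and 0.0014 with array weights. With an array left out, HPGD lay between -0.30 and 0.41, PTGER4 between -2e-04 and 0.17, PLA2G4A between -0.36 and 0.11 and SLCO2A1 between -0.64 and 0.0644. Between the knockdowns, HPGD turned to -0.0873 (75th percentile), -0.0789 (quantile), -0.0551 (normexp), -0.0067 (authors' table), -0.18 (slide) and -0.14 (array weights). SLCO2A1 turned to -0.14 (slide) and -0.0479 (array weights). With an array left out these lay between -0.18 and 0.19 for HPGD and between -0.14 and 0.57 for SLCO2A1.

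With the replicate number as a block, the PTGS2 differences stayed at 1.69, 1.84 and -0.15, and 1, 2 and 1 members were called; the block changed no call. Of the 9 same-numbered pairs, 2 correlated best with their own number, so the numbers were not read as a pairing. In the other eicosanoid list, calls moved from 0 to 1 for Lamin B2 with the 75th percentile shift or quantile normalization, and from 5 to 3 between the knockdowns with normexp. In the list of regulators, the 2 calls for Lamin A/C became 0 with normexp or the authors' table and 1 under most other alternatives, and the 2 for Lamin B2 became 0 with normexp. Its 2 calls between the knockdowns became 1 in the authors' table and 4 without Lamin B2 Kd replicate 2. PTGS2 and SLCO2A1 lay near the background of the arrays, where the size of a fold is least certain.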
